A study of Oryza sativa with 36 samples.

Results

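Gene expression was followed over 5 labelled groups of axillary meristem tissue, AM1 to AM5, of the rice cultivar Takanari. These were the 15 libraries of that cultivar whose tissue label is AM1, AM2, AM3, AM4 or AM5 (3 each), out of 35 libraries with counts in the series. Takanari, an indica rice grown for its high yield, has no allele, treatment or plant age given. Used only for comparison were 2 Takanari libraries labelled SAM, a label that is not spelled out, and 15 libraries AM1 to AM5 of NIL-MP3, whose name marks a near-isogenic line. Plants of both cultivars grew in chambers under short days, with light for 10 h (27 °C) and darkness for 14 h (25 °C). What the AM numbers stand for, such as a position on the plant or an age, is not stated, so AM number is used here as an order of labels and not as time. Nor is it stated whether libraries came from separate plants or from pools, so every test measures the spread among these libraries, part of which may be technical.

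An axillary meristem is a small group of dividing cells in the angle between a leaf and the stem. It makes leaf primordia and becomes a bud, which may stay dormant or grow out as a side shoot. In grasses such as rice those shoots are tillers, and the number of tillers that bear panicles is a component of grain yield.

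RNA was read by CEL-Seq2, which counts transcript molecules near their 3' ends by molecular identifiers. A library held 77362 to 179993 molecules, and 4327 of the 21730 loci with a count were abundant enough to test. These held 73.9% to 76.4% of each library's counts. From AM1 to AM5 mean totals were 124727 ± 28873, 166242 ± 6015, 126343 ± 11101, 154862 ± 31117 and 105454 ± 25626 molecules (SD, n = 3 each), so AM5 was the shallowest group. Levels are printed as CPM, counts scaled to a common library total. Loci are printed by identifier alone, because 0 of 55801 identifiers matched the gene table used here. For the same reason no locus has a role attached, no pathway list was counted, the sequences are not shown, and the labelled tissue could not be set against marker genes.

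Library numbers fall into 3 sets, 1 to 6, 7 to 12 and 13 to 18, and each set holds 1 library of each AM group. The set was a block in every test, so that each locus was compared within sets. In tissue samples a lower count can come from fewer cells of a type or from less RNA per cell, and these cannot be told apart.

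The first question was which loci changed along AM1 to AM5. In edgeR's quasi-likelihood test 929 of 4327 loci, 21.5%, had a linear slope at an adjusted p under 0.05, of which 459 rose (10.6% of those tested) and 470 fell (10.9%). The locus with the lowest p among those that rose was LOC_Os03g45280 on chromosome 3. It had 55.7, 69.9, 29.5, 237 and 543 CPM from AM1 to AM5 in numbers 1 to 6, 36.9, 53.9, 140.3, 133 and 439.7 CPM in numbers 7 to 12, and 146, 169, 263, 441 and 2266 CPM in numbers 13 to 18. The AM5 library was the highest of each set, and the AM5 libraries lay above the libraries of all other AM groups, except that AM5 library 7 was level with AM4 library 14. Its slope was 0.91 ± 0.068 on the log2 scale per AM number (SE, adjusted p = 1.84e-15), a fitted 12.4-fold rise over the 4 steps. The rise was not even: the locus departed from a line (edgeR adjusted p = 0.0239), with a quadratic term of 0.27 ± 0.065 (SE, adjusted p = 0.0155). Of its steps only AM5 minus AM4 passed, at 1.94 ± 0.24 (SE, edgeR adjusted p = 4.49e-07). Without AM5 the slope was 0.60. Numbers 13 to 18 were the highest set at every AM number, and the sets differed at this locus (edgeR, adjusted p = 2.08e-08). The 2 SAM libraries had 65.5 and 35.4 CPM, close to the lower AM1 libraries.

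LOC_Os03g06240, also on chromosome 3, had 334, 326, 531, 851 and 905 CPM in numbers 1 to 6. In numbers 7 to 12 it had 397, 425, 1193, 1039 and 1409 CPM, and in numbers 13 to 18 it had 342, 488, 834, 1058 and 1639 CPM. All AM3, AM4 and AM5 libraries lay above all AM1 and AM2 libraries. The slope was 0.52 ± 0.043 (SE, edgeR adjusted p = 1.60e-14), a 4.29-fold rise.

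Among the loci that fell, LOC_Os03g17100 on chromosome 3 had 1031, 1158, 693, 365 and 233 CPM in numbers 1 to 6. It had 1125, 1329, 359.6, 333 and 170.5 CPM in numbers 7 to 12 and 1367, 1264, 888, 466 and 235 CPM in numbers 13 to 18. The AM1 and AM2 libraries overlapped each other and lay above the rest, and the AM5 libraries were the 3 lowest. Its slope was -0.64 ± 0.048 (SE, edgeR adjusted p = 1.45e-15), a 5.96-fold fall over 4 steps. LOC_Os05g36280 on chromosome 5 had 678, 687, 553, 194 and 168 CPM in numbers 1 to 6, 811, 838, 307, 222 and 153 CPM in numbers 7 to 12, and 930.003, 782, 556, 242 and 102 CPM in numbers 13 to 18. The order of the groups was the same, with AM1 and AM2 overlapping at the top and all AM5 libraries below all AM4 libraries. The slope was -0.67 ± 0.055 (SE, edgeR adjusted p = 1.60e-14), a 6.39-fold fall.

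**Figure D1:**
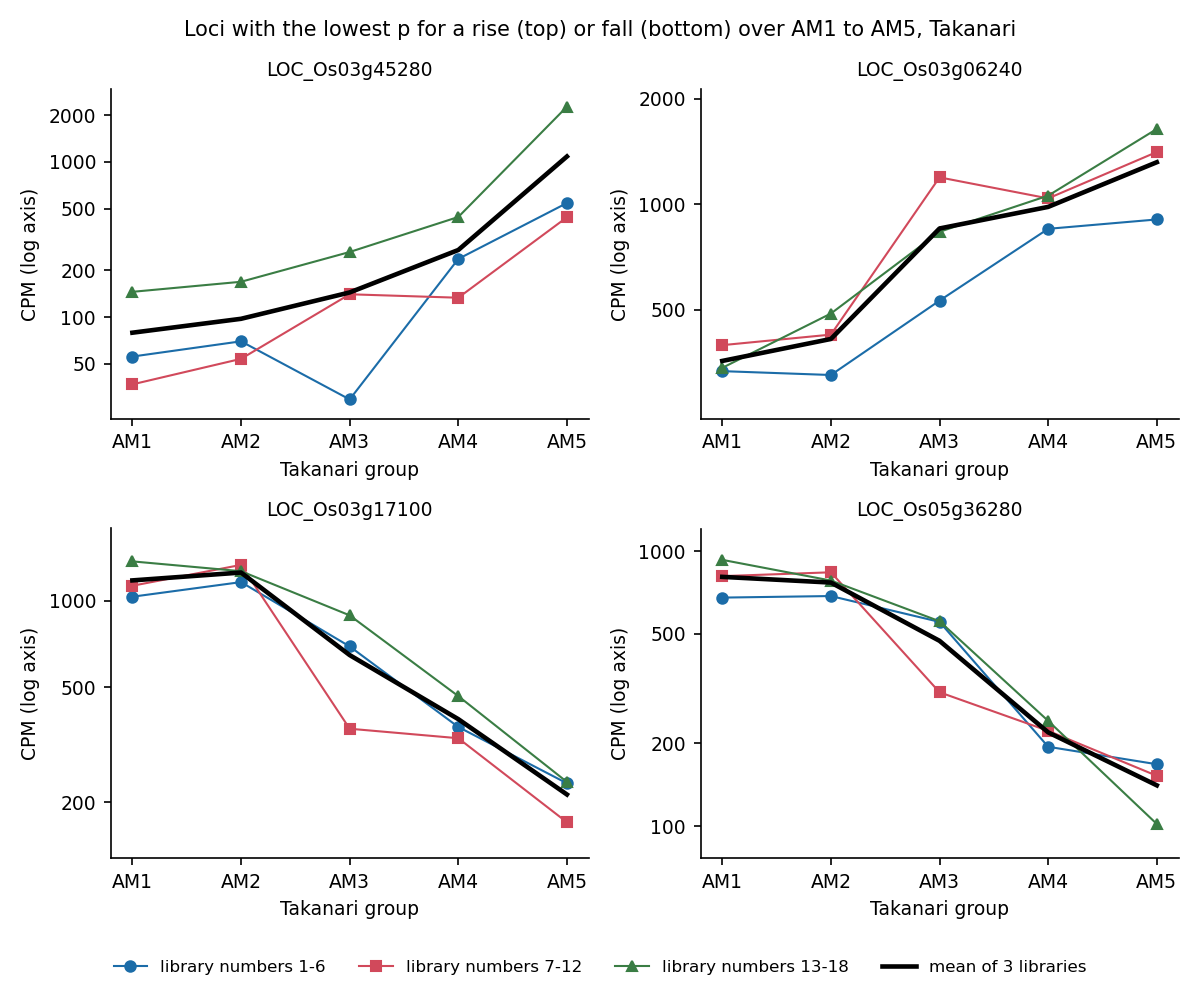
Level of 4 loci in the 15 Takanari AM libraries, in CPM on a log axis, against AM number. Coloured lines join the libraries of 1 set of library numbers and the black line is the mean of the 3 libraries. LOC_Os03g45280 and LOC_Os03g06240 (top) reach their highest level in AM5 in each set, and LOC_Os03g17100 and LOC_Os05g36280 (bottom) their lowest.

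The changes were mostly moderate in size. Over the 4 steps the median fitted change was 2.39-fold among the 459 rising loci and 2.37-fold among the 470 falling loci, against 1.41-fold over all loci tested. Of the rising loci 347 changed by more than 2-fold and 72 by more than 4-fold, up to 24.5-fold, and of the falling loci 317 and 73, up to 28.9-fold. No locus with at least 10 counts in each library at one end of the series was at 0 in all 3 libraries of the other end (0 loci in each direction).

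Together the rising loci made up 14.7% ± 1.06, 13.9% ± 0.567, 18.6% ± 2.45, 21.1% ± 1.72 and 26.3% ± 2.98 of a library's molecules from AM1 to AM5 (SD, n = 3). The falling loci made up 15.8% ± 0.662, 15.02% ± 0.525, 11.2% ± 1.81, 8.94% ± 0.508 and 7.33% ± 0.712 in the same order. The loci were chosen for this slope, so these shares describe its size and are no test of it. Both shares were slightly lower in AM2 than in AM1, and the spread was widest in AM5 for the rising loci and in AM3 for the falling loci.

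The peak or trough was not always at the end. The mean CPM of a rising locus was highest in AM5 at 306 loci, in AM4 at 125, in AM3 at 27 and in AM2 at 1. The mean CPM of a falling locus was lowest in AM5 at 364 loci, in AM4 at 90, in AM3 at 15 and in AM2 at 1. The 5 fitted means followed the AM order without a reversal at 134 rising loci (29.2%) and 127 falling loci (27.0%), against 8.48% of all loci tested. A slope call from the same 5 means favours that order, so the excess is no test of a gradual change.

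AM5 stood apart by its low mean total, though not in every library, and by its scaling factors, 0.880, 0.948 and 0.966 in AM5 against 0.987 to 1.04 in the other AM groups. With every library thinned to 77362 molecules, 484 loci passed, and 772 passed in a test over AM1 to AM4 without AM5. Without any 1 library the count was 712 to 1019. The filter was rerun each time, and the count of 1019 came from 5041 loci tested, so it is no gain over 929 of 4327.

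The direction of change was shared by the sets. Of the rising loci 439 of 459 (95.6%) had a positive slope in each of the 3 sets, and of the falling loci 461 of 470 (98.1%) a negative one, but the loci were chosen with all 3 sets. Each set was therefore also set against loci called from the remaining sets alone. Those lists held 317 to 339 rising and 311 to 343 falling loci. In the set left out, 91.2% to 93.4% of the rising loci and 92.1% to 94.7% of the falling loci kept their sign, against 48.9% to 51.1% of all loci tested. The median slope in the set left out was 0.250 to 0.265 for rising loci and -0.262 to -0.238 for falling loci, and the fitted medians in the sets that chose them were 0.346 to 0.399 and -0.386 to -0.351.

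The second question was whether the change was gradual or came in a step. For each set, the mean log2 level of loci called without it, with falling loci turned round, placed its libraries on a scale from 0 in its AM1 library to 100 in its AM5 library. In numbers 1 to 6 AM2 lay at 7.12% of that way, AM3 at 26.3% and AM4 at 67.9% (637 loci). In numbers 7 to 12 AM2 lay at -8.64%, AM3 at 74.6% and AM4 at 75.8% (674 loci). In numbers 13 to 18 AM2 lay at 15.6%, AM3 at 52.0% and AM4 at 99.8% (650 loci). AM2 lay nearer to AM1 in all sets than equal steps would put it, while the largest stretch was between AM2 and AM3 in numbers 7 to 12 and between AM3 and AM4 in the other sets.

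Over the sets AM2 lay at 4.70% ± 12.3, AM3 at 51.0% ± 24.2 and AM4 at 81.1% ± 16.6 (SD, n = 3 sets). AM3 had the widest spread of these groups. Equal steps would put these groups at 25, 50 and 75, so the average AM3 lay near the middle, although of the single AM3 libraries only the library of numbers 13 to 18 did so by itself. Rising and falling loci put the sets in the same order at AM3. They placed it at 21.9% and 31.3% in numbers 1 to 6, 66.4% and 82.7% in numbers 7 to 12, and 49.9% and 54.0% in numbers 13 to 18. Elsewhere they could lie further apart, as at AM4 in numbers 1 to 6 (57.5% and 79.6%). Each position rests on 1 library, so a single position has no replicate check. The scale also fixes the AM1 and AM5 libraries of each set. Variation in those end libraries therefore shifts the groups between them, and part of the spread may come from it. The mean log2 distance from AM1 to AM5 was 1.11 in numbers 1 to 6, 0.90 in numbers 7 to 12 and 0.96 in numbers 13 to 18.

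**Figure D2:**
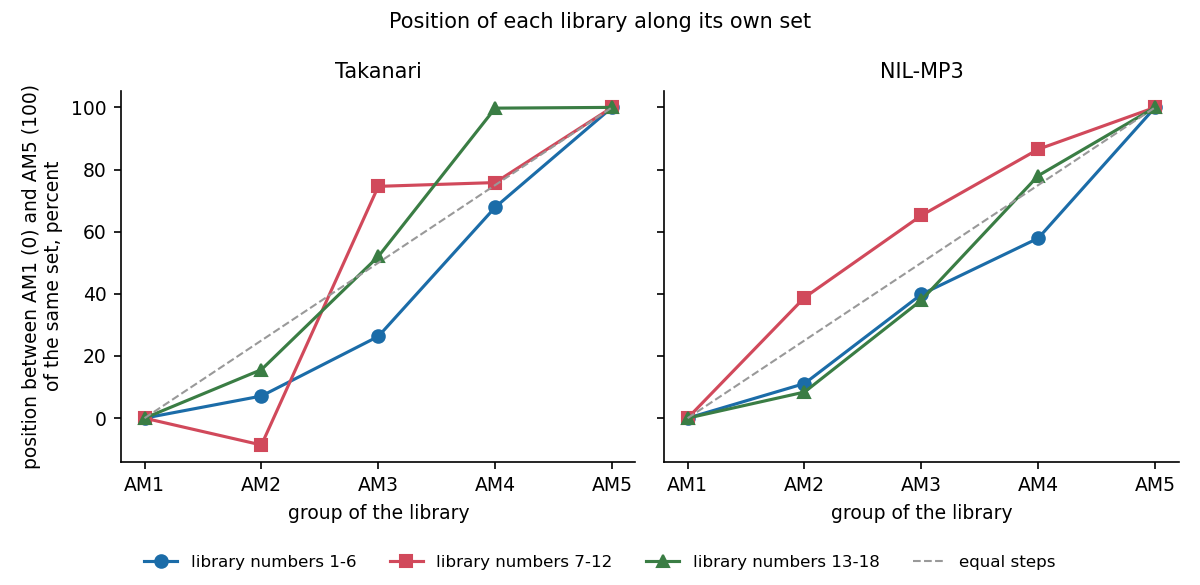
Position of each AM library between the AM1 library (0) and the AM5 library (100) of its own set of library numbers, in percent, in Takanari (left) and NIL-MP3 (right). Points are single libraries, coloured by set, and the dashed line marks equal steps. In Takanari AM3 lies at 26.3%, 74.6% and 52.0% in the 3 sets.

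The median step sizes in the left-out set located the largest step in the same way, except that the rising loci of numbers 1 to 6 had slightly more between AM4 and AM5 than between AM3 and AM4. For rising loci the 4 steps from AM1 to AM5 were 0.11, 0.17, 0.38 and 0.40 on the log2 scale in numbers 1 to 6. They were -0.07, 0.64, 0.03 and 0.24 in numbers 7 to 12, and 0.14, 0.39, 0.43 and 0.01 in numbers 13 to 18. The falling loci had steps of -0.04, -0.27, -0.45 and -0.23, then 0.03, -0.77, -0.01 and -0.17, then -0.16, -0.31, -0.38 and -0.003 in the same order of sets. The smallest median step was between AM1 and AM2 in numbers 1 to 6 and between AM4 and AM5 in numbers 13 to 18. In numbers 7 to 12 the steps between AM3 and AM4 and between AM1 and AM2 were both small. These medians cover only loci called for a slope, with 1 library per group, so other changes between these groups cannot show here.

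A principal component analysis of the 1000 most variable of the loci tested placed the libraries in the same way. The first component held 35.4% of the variance and ran from AM1 libraries at -17.2 to -13.5 and AM2 libraries at -15.4 to -11.8 to AM4 libraries at 5.84 to 13.8 and AM5 libraries at 15.01 to 28.0. The AM3 libraries lay at -8.86 (library 3), 9.69 (library 9) and -1.65 (library 15). Library 9 lay within the range of AM4. Its total of 114024 molecules was the lowest of AM3, against 135569 and 129437 in libraries 3 and 15, and whether depth had a part in its place was not tested. Lower totals were found in AM1 libraries 5 and 11 (107674 and 108444) and AM5 libraries 1 and 7 (77362 and 111449). The library at 28.0 was AM5 library 1, the shallowest, and a part of depth in that place was not tested either.

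For the 929 loci with a slope, a straight line and a single break after AM1, AM2, AM3 or AM4 were compared by how much of the difference between the 5 groups each explained, with the set as block. A line explained a median of 82.5%, a break after AM2 71.4%, a break after AM3 66.5%, a break after AM4 36.4% and a break after AM1 30.7%. The line was the best of the 5 at 420 loci (45.2%), followed by the break after AM2 at 243, after AM3 at 142, after AM4 at 71 and after AM1 at 53. These counts are a description: there were 4 breaks and 1 line to choose from, while choosing loci by their slope favours the line. The line was best at 234 of 459 rising loci (51.0%) and at 186 of 470 falling loci (39.6%). Without AM3 library 9 the break after AM2 was best at 170 loci and the break after AM3 at 254, and without AM3 library 3 at 333 and 117. Without AM2 library 10 the break after AM1 was best at 86 loci.

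Each step was then tested by itself. AM2 differed from AM1 at 29 loci (0.67% of those tested), AM3 from AM2 at 32 (0.74%), AM4 from AM3 at 1 (0.0231%) and AM5 from AM4 at 23 (0.532%) in edgeR's test. At an unadjusted p under 0.05 the counts were 361, 589, 319 and 395, where 216 are expected with no difference, so the low counts do not show that neighbouring groups were alike. In all, 83 loci passed at some step and 62 of these also had a slope. The steps differed in direction and in how they related to the slope. Of 29 loci between AM2 and AM1 28 were lower in AM2 (0.647%), and 12 of the 29 had a slope in the same direction. All but 1 of the 32 loci between AM3 and AM2 had such a slope, 19 of the 32 being higher (0.439%) and 13 lower (0.3%) in AM3. Between AM5 and AM4, 21 loci were higher (0.485%) and 2 lower (0.0462%) in AM5, and 17 of the 23 had such a slope. The slope comes from the same libraries and weights the middle steps more than the first and last. Part of the difference between steps in shared slope calls is therefore built in.

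**Figure D3:**
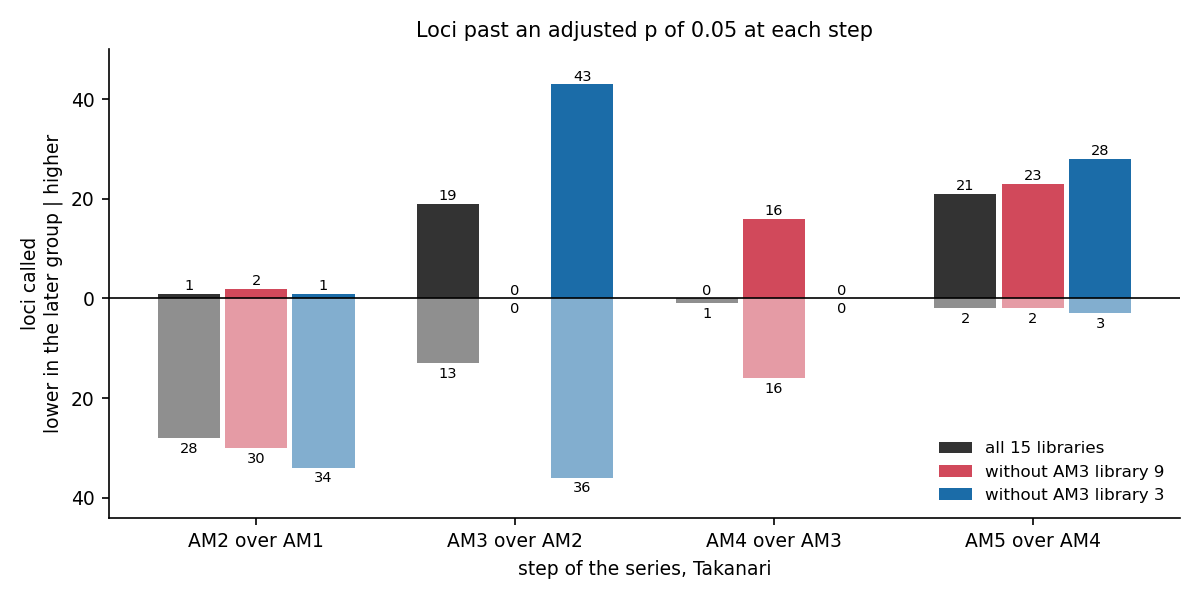
Number of loci past an adjusted p of 0.05 in edgeR's test at each of the 4 steps of the Takanari series, counted upward when higher and downward when lower in the later group. Black and grey bars use all 15 libraries, red bars leave out AM3 library 9 and blue bars AM3 library 3. Of the middle steps, only AM4 over AM3 has loci with library 9 left out (32), and only AM3 over AM2 with library 3 left out (79). The first and last steps have 32 and 25 loci without library 9, and 35 and 31 without library 3. The numbers of loci tested were 4327 with all libraries, 5041 without library 9 and 4809 without library 3.

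Which step held the middle of the change rested on single libraries. The filter was rerun without each library, so the number of loci tested changed from 4327. Without AM3 library 9 (5041 loci tested), AM3 differed from AM2 at 0 loci and AM4 from AM3 at 32, 16 of them higher in AM4. Without AM3 library 3 (4809 loci tested), AM3 differed from AM2 at 79 loci and AM4 from AM3 at 0. The count between AM3 and AM2 was also 0 without AM2 library 10, 11 without AM2 library 4, 20 without AM3 library 15, 72 without AM5 library 1 and 55 without AM5 library 13. The single locus between AM4 and AM3 was lost without any 1 of 11 libraries, and 5 loci passed without AM5 library 1. Between AM2 and AM1 the count was 4 without AM1 library 17, 7 without AM2 library 16, 16 without AM1 library 5, 17 without AM2 library 4 and 49 without AM5 library 1. Between AM5 and AM4 it was 7 without AM4 library 2, 8 without AM4 library 8, 7 without AM5 library 1 and 39 without AM5 library 13.

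The 4 loci named for the step from AM2 to AM3 show how much of it lay in numbers 7 to 12. At LOC_Os03g06240, whose levels are given above, the log2 difference AM3 minus AM2 was 1.03 ± 0.19 (SE, edgeR adjusted p = 0.00249), from 0.67, 1.49 and 0.78 in the 3 sets. LOC_Os01g57960 on chromosome 1 had 2796, 2842 and 2256 CPM in AM3 libraries 3, 9 and 15, against 1857, 1353 and 1420.1 CPM in AM2 libraries 4, 10 and 16. The groups did not overlap, and the difference was 0.79 ± 0.14 (SE, edgeR adjusted p = 0.00249), with 0.57, 1.10 and 0.69 in the sets.

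In the opposite direction, the difference of LOC_Os03g17100 was -0.96 ± 0.18 (SE, edgeR adjusted p = 0.00283), with -0.74, -1.81 and -0.48 in the sets. LOC_Os06g06480 on chromosome 6 had 192, 87.7 and 155 CPM in the AM3 libraries, against 268, 515 and 382 CPM in the AM2 libraries. Its difference was -1.34 ± 0.28 (SE, edgeR adjusted p = 0.00507), with -0.46, -2.33 and -1.20 in the sets. In all 4 loci numbers 7 to 12 had the largest difference. None of the 4 passed without AM2 library 10, without AM3 library 9 or without numbers 7 to 12. All kept their direction. In the order given here, the differences were 0.94, 0.68, -0.78 and -1.13 without AM2 library 10, 0.76, 0.70, -0.71 and -0.96 without AM3 library 9, and 0.76, 0.65, -0.60 and -0.87 without numbers 7 to 12. The calls of LOC_Os03g17100 and LOC_Os06g06480 also ended in thinned counts.

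Outside AM2 and AM3 the levels of both loci new to this step followed the AM order. LOC_Os06g06480 had 362, 369 and 348 CPM in AM1 libraries 5, 11 and 17, 66.9, 128 and 83.3 CPM in AM4 libraries 2, 8 and 14, and 38.8, 53.8 and 31.4 CPM in AM5 libraries 1, 7 and 13. The AM5 values come from 3, 6 and 4 counts. LOC_Os01g57960 had 2368, 2112 and 1898 CPM in AM1, 3446, 3867 and 3373 CPM in AM4, and 5041, 4208 and 3818 CPM in AM5. Its AM2 libraries were the 3 lowest of the series. Its slope over the whole series was 0.35 ± 0.032 (SE, edgeR adjusted p = 6.88e-13) and that of LOC_Os06g06480 was -0.81 ± 0.080 (SE, adjusted p = 1.13e-11). LOC_Os01g57960 also departed from a line (edgeR adjusted p = 0.00164), with a quadratic term of 0.11 ± 0.027 (SE, adjusted p = 0.022). For LOC_Os06g06480 a departure did not pass (edgeR adjusted p = 0.243).

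The 28 loci lower in AM2 than in AM1 had their lowest median in AM2 and not at the end of the series. This median level was 368, 127, 176, 180 and 210.2 CPM from AM1 to AM5, and it was 262 CPM in SAM. Of these loci, 20 had all AM2 libraries below both SAM libraries (9.64% of all loci tested) and 8 had all AM1 libraries above both (10.9%). These counts use the AM1 and AM2 libraries that chose the loci, so an excess over all loci tested is no test. The 19 loci higher in AM3 than in AM2 had medians of 357, 269.7, 617, 580 and 494 CPM from AM1 to AM5 and 363 CPM in SAM. The 13 loci lower in AM3 had 495, 585, 305, 216 and 175 CPM and 421 CPM in SAM. The 21 loci higher in AM5 than in AM4 had medians of 166, 110.1, 118, 150.3 and 412 CPM and 101 CPM in SAM, and their median was highest in AM5. The loci were chosen for the step shown, so only the remaining groups are new information.

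Of the few loci that stand alone at a step, chosen after their values were seen, LOC_Os02g07030 on chromosome 2 was the 1 locus higher in AM2. It had 338, 341 and 225.2 CPM in AM2 libraries 4, 10 and 16, against 158, 92.2 and 127 CPM in AM1 libraries 5, 11 and 17. The groups did not overlap, and the difference was 1.21 ± 0.29 (SE, edgeR adjusted p = 0.0183). It did not pass without AM1 library 5, 11 or 17 or AM2 library 4 or 10, without any 1 set, with DESeq2, in thinned counts or without the block. LOC_Os05g36280, described above, was the 1 locus between AM4 and AM3, with a difference of -1.10 ± 0.23 (SE, edgeR adjusted p = 0.0461), and it too did not pass with DESeq2, in thinned counts or without the block.

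LOC_Os02g47150 on chromosome 2 had 77.6, 80.8 and 47.04 CPM in AM5, against 249, 244 and 167 CPM in AM4 (libraries in the order of the sets). Its difference was -1.58 ± 0.34 (SE, edgeR adjusted p = 0.00859), and it was -2.44 in thinned counts. LOC_Os03g58470 on chromosome 3 had 375, 413 and 274 CPM in AM5, against 717, 722 and 558 CPM in AM4, a difference of -0.80 ± 0.20 (SE, edgeR adjusted p = 0.0385). These were the 2 loci that passed as lower in AM5 than in AM4, and the groups did not overlap in either. Both calls ended without AM4 library 8, AM5 library 1 or AM5 library 13, and that of LOC_Os03g58470 also without AM4 library 2, with DESeq2, in thinned counts or without the block. Both ended without any 1 set.

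The shape of the change was tested in 2 ways, by a quadratic term (positive where the later steps are more upward than the earlier ones) and by any departure from a straight line. The quadratic term passed at 74 loci (1.71%), 59 of them positive (1.36%) and 15 negative (0.347%), and a departure from a line at 51 (1.18%), 41 of them with a positive and 10 with a negative quadratic term. The excess of positive terms depended on the scaling. With upper quartile scaling 49 of 81 quadratic terms were positive (60.5%, against 79.7% with TMM), and 38 of 58 departures (65.5%, against 80.4%). The quadratic count was 25 without AM1 library 17, 46 without AM3 library 3 and 44 without AM3 library 15, and the count of departures was 19 without AM1 library 17 and 25 without AM1 library 5.

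A departure from a line passed at 18 of the 459 rising loci (3.92%) and 11 of the 470 falling loci (2.34%), against 1.18% of all loci tested. Of the 59 loci with a positive quadratic term 34 had no slope call, 18 rose and 7 fell. Their mean CPM was highest in AM5 at 32 loci and in AM1 at 27, and lowest in AM2 at 27, AM3 at 18 and AM4 at 12. Of the 15 with a negative term 10 had their highest mean CPM in AM3. A positive term favours high ends with a low middle and a negative term the reverse. These counts therefore describe the chosen loci and are no test of their shape.

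LOC_Os07g18750 on chromosome 7 had the lowest p for a departure from a line (edgeR adjusted p = 1.20e-05). It had 873, 198, 243, 316 and 142 CPM from AM1 to AM5 in numbers 1 to 6, 443, 119.7, 158, 144 and 98.7 CPM in numbers 7 to 12, and 791, 138, 155, 142 and 180.3 CPM in numbers 13 to 18. Only AM1 stood apart, above all 12 other AM libraries. The difference AM2 minus AM1 was -2.24 ± 0.24 (SE, edgeR adjusted p = 1.02e-09). The SAM libraries, at 187 and 153 CPM, lay within the range of AM2 to AM5.

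LOC_Os02g43700 on chromosome 2 had 399, 139.7, 118, 231 and 504 CPM in numbers 1 to 6, 406, 287, 219, 183 and 422 CPM in numbers 7 to 12, and 468, 213, 201 (library 15), 325 and 431 CPM in numbers 13 to 18. The AM1 and AM5 libraries lay above all 9 of AM2, AM3 and AM4. Its linear slope was 0.06 ± 0.054 (SE, edgeR adjusted p = 0.496), while its quadratic term was 0.34 ± 0.049 (SE, adjusted p = 1.20e-05) and its departure from a line had an adjusted p of 1.37e-04. In this locus both arms of the trough passed by themselves, at -1.04 ± 0.25 for AM2 minus AM1 (SE, edgeR adjusted p = 0.0184) and 1.003 ± 0.25 for AM5 minus AM4 (adjusted p = 0.0385).

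**Figure D4:**
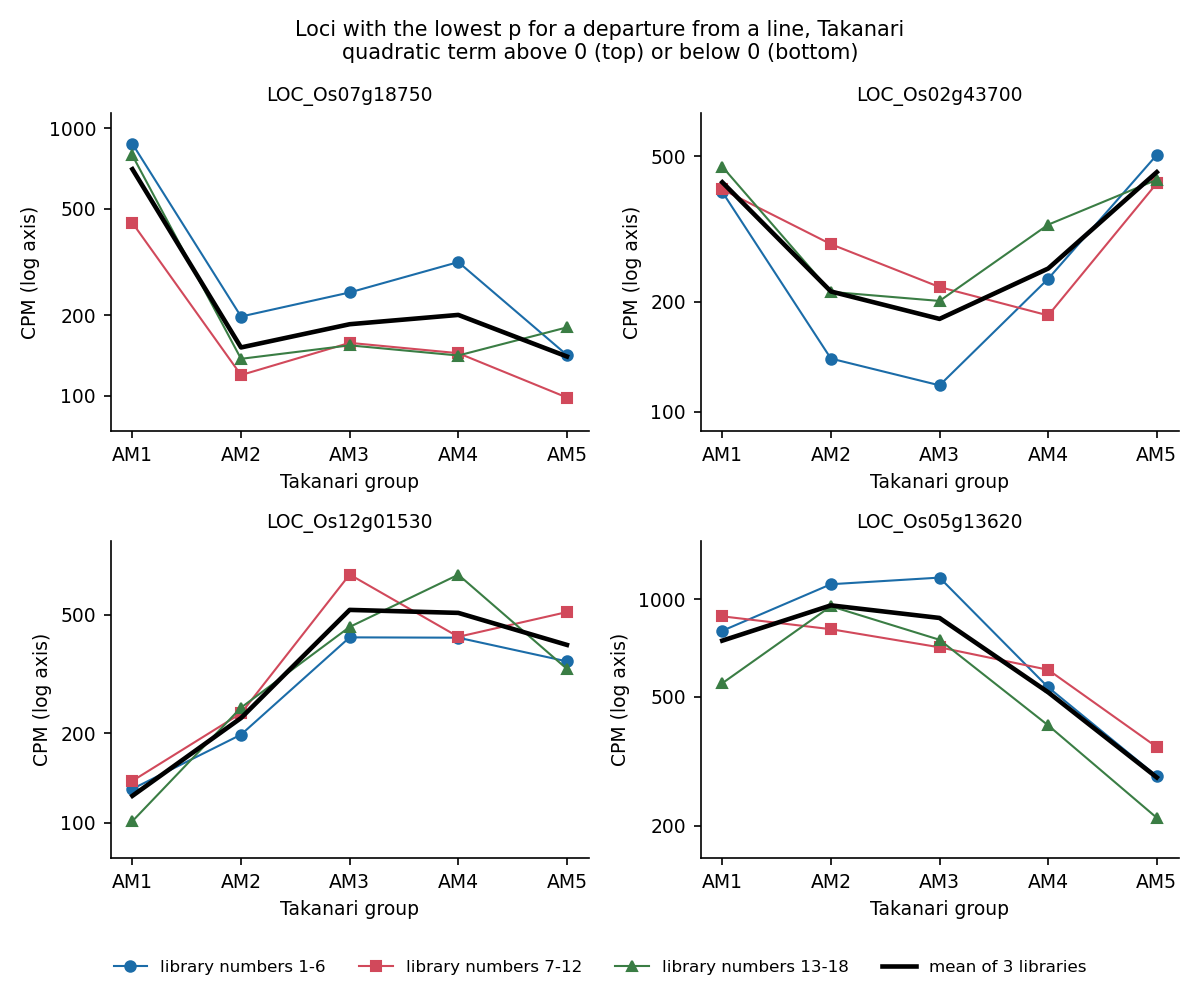
Level of 4 loci that departed from a straight line in the 15 Takanari AM libraries, in CPM on a log axis, against AM number. Coloured lines join the libraries of 1 set of library numbers and the black line is the mean of the 3 libraries. LOC_Os07g18750 drops after AM1, LOC_Os02g43700 is high at both ends, and LOC_Os05g13620 is lowest in AM5. LOC_Os12g01530 rises up to AM3 in each set, with means of 520, 508 and 397 CPM from AM3 to AM5.

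The 2 loci named with a negative quadratic term differed in shape. LOC_Os12g01530 on chromosome 12 had 130.02, 198, 420.45, 419 and 349 CPM in numbers 1 to 6, 138, 233, 684, 422 and 511 CPM in numbers 7 to 12, and 101, 244, 456, 683 and 329 CPM in numbers 13 to 18. All libraries of AM3 to AM5 lay above all of AM2, and these above all of AM1. The difference AM3 minus AM2 was 1.21 ± 0.23 (SE, edgeR adjusted p = 0.00283), and that of AM4 minus AM3 was -0.03 ± 0.21 (adjusted p = 0.983). Its departure from a line had an adjusted p of 0.00232 in edgeR's test. Its identifier places it near the start of chromosome 12, a stretch that is duplicated on chromosome 11, and how reads shared by such copies were counted is not given in the sources used here.

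LOC_Os05g13620 on chromosome 5 had 799, 1112, 1165, 535 and 284 CPM in numbers 1 to 6, 885, 808, 710.4, 606 and 349.9 CPM in numbers 7 to 12, and 550.4, 951, 749, 408 and 212 CPM in numbers 13 to 18. Its 3 AM5 libraries were the lowest of the series, and AM1, AM2 and AM3 overlapped. The quadratic term was -0.20 ± 0.039 (SE, edgeR adjusted p = 0.00172) and the departure from a line had an adjusted p of 0.00494. The quadratic terms in the sets were -0.24, -0.07 and -0.27, weakest in numbers 7 to 12. The departure did not pass without the block, without numbers 1 to 6 or without numbers 13 to 18, and that of LOC_Os12g01530 did not pass without numbers 13 to 18 or in thinned counts.

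Libraries of NIL-MP3, none of which entered the fits above, gave a second view of the same loci. In that line 492 of 4943 loci (9.95%) had a slope. Of the loci that rose in Takanari 425 of 446 had a positive slope in NIL-MP3 (95.3%, against 50.4% of all loci), and 178 passed there as rising, where 5.28% of all loci did. Of those that fell in Takanari 433 of 451 had a negative slope (96.0%, against 49.6%), and 175 passed as falling, where 4.67% did. None was called in the opposite direction (0 loci). The median slopes were 0.31 in Takanari and 0.20 in NIL-MP3 for the rising loci, and -0.30 and -0.18 for the falling loci. Choosing the loci in Takanari favours larger slopes there, so the medians do not show a difference between the lines.

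The difference of the slopes, Takanari minus NIL-MP3, was tested in 1 fit of all 30 AM libraries. It passed at 0 of 5824 loci (0%) with edgeR, and at 0 with DESeq2 and with limma voom, while 360 loci had an unadjusted p under 0.05, where 291 are expected with no difference. The smallest adjusted p was 0.377. Among the named loci LOC_Os12g01530 had the largest difference, 0.30 ± 0.093 per AM number (SE, edgeR adjusted p = 0.594), with a slope of 0.48 ± 0.061 in Takanari and 0.18 ± 0.064 in NIL-MP3. The 4 loci named for their slope had 0.89 ± 0.076, 0.44 ± 0.047, -0.67 ± 0.064 and -0.68 ± 0.063 in NIL-MP3 (SE, in the order given above). A locus passed without Takanari AM5 library 13 (1 locus) and without NIL-MP3 AM5 library 1 (1 locus).

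In NIL-MP3 63 of 4943 loci (1.27%) had a quadratic term past the threshold, 42 positive (0.85%) and 21 negative (0.425%). All 57 loci with a positive quadratic term in Takanari that were tested in NIL-MP3 had a positive term there (against 49.9% of all loci), and 13 passed. Of 15 with a negative term 14 had a negative one, of which 4 passed. LOC_Os02g43700 had a quadratic term of 0.40 ± 0.051 in NIL-MP3 (SE, edgeR adjusted p = 4.04e-07). LOC_Os07g18750 was lower in AM2 than in AM1 there too, by -1.20 ± 0.25 (SE, edgeR adjusted p = 0.0388), the single locus that passed at that step in NIL-MP3 (0.0202% of those tested). Of the 28 loci that were lower in AM2 than in AM1 in Takanari, 28 had that sign in NIL-MP3 (49.2% of all loci did), with a median difference of -1.39 in Takanari and -0.67 in NIL-MP3. Of the 21 loci higher in AM5 than in AM4, 21 had that sign (50.7% of all loci) and 3 passed. Over all loci 18 passed at that step in NIL-MP3 (0.364%), 13 higher (0.263%) and 5 lower (0.101%) in AM5. The median differences of the 21 loci were 1.52 in Takanari and 0.98 in NIL-MP3. For the step from AM2 to AM3 the sign was shared by 18 of 19 higher and 13 of 13 lower loci (48.4% and 51.6% of all loci). None of them passed in NIL-MP3, where 0 of 4943 loci passed at that step. Their median differences were 1.03 in Takanari and 0.45 in NIL-MP3 for the higher loci, and -1.04 and -0.71 for the lower loci. Choosing the loci in Takanari favours larger differences there.

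The placing of libraries within sets was repeated in NIL-MP3 with 897 of the loci called in Takanari. AM2, AM3 and AM4 lay at 11.1%, 39.8% and 57.9% in numbers 1 to 6 of NIL-MP3, at 38.8%, 65.2% and 86.5% in numbers 7 to 12, and at 8.40%, 38.0% and 78.0% in numbers 13 to 18. There AM3 lay between AM2 and AM4 in each set, whereas in numbers 7 to 12 of Takanari AM3 was level with AM4. No test compared the lines in this respect.

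Loci with a slope lay on all 12 chromosomes, and chromosome 12 had the highest share of rising loci, 41 of 221 tested (18.6%, against 10.6% over all chromosomes). Much of this came from 1 stretch, chosen after its values were seen, between LOC_Os12g33922 and LOC_Os12g34128. Of its 17 tested loci 16 rose and 0 fell, 12 of them in an unbroken run of neighbouring tested loci, while the longest run of falling loci in the genome was 4. On the rest of chromosome 12 25 of 204 loci rose (12.3%). The slopes of the 17 loci lay between 0.22 and 0.46, with a median of 0.31.

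The summed counts of these 17 loci were 0.457%, 0.459% and 0.518% of the library in AM1, 0.449%, 0.492% and 0.564% in AM2, and 0.621%, 0.695% and 0.724% in AM3. They were 0.738%, 0.926% and 0.890% in AM4 and 0.976%, 0.985% and 0.944% in AM5 (numbers 1 to 6, 7 to 12 and 13 to 18 in each group). AM1 and AM2 overlapped, and from AM2 on every group lay above the one before. The SAM libraries, at 0.417% and 0.503%, lay in or below the range of AM1. In NIL-MP3 15 of the 17 loci passed as rising, with a median slope of 0.35. Here AM3 library 9 lay between the other AM3 libraries, unlike its place over all called loci. The loci of the stretch are neighbours, and whether they share reads, with each other or with other copies, is not given in the sources used here, so they count as 1 observation.

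**Figure D5:**
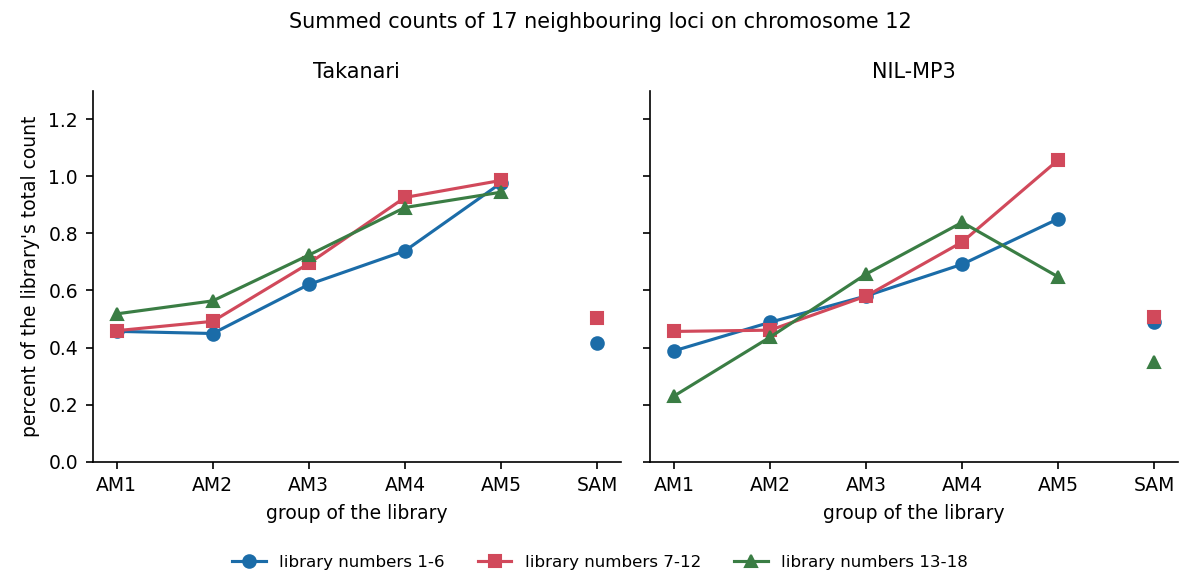
Summed counts of 17 neighbouring tested loci of chromosome 12 as a percent of each library's total count, by group, in Takanari (left) and NIL-MP3 (right). Points are single libraries, coloured by set of library numbers, lines join AM1 to AM5 within a set, and SAM is shown apart. In Takanari the AM5 libraries lie between 0.944% and 0.985% and the AM1 libraries between 0.457% and 0.518%.

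Among 4315 pairs of adjacent tested loci both members had a slope in 212, of which 59 pairs rose, 61 fell and 92 moved in opposite directions. Over all tested loci 21.5% had a slope, 10.6% rising and 10.9% falling. The pairs include those of the stretch above. Their counts were not compared with what these shares give by chance, so they do not show that neighbours move together.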

How the data were processed

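The deposited values were counts of molecules, whole numbers per locus that the authors had not normalized, in 35 libraries. Per the submitters' processing notes, Bowtie2 and Subread 2.1 were used. The sources used here name no genome build or annotation. Per the labels, 100 pg of RNA went into a library and PCR took 11 to 15 cycles. Takanari SAM library 18 is not analysed here.

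Loci passing filterByExpr (minimum count 10) were scaled by TMM and fitted with edgeR 4.0.16 in R 4.3.3 (quasi-likelihood F test, robust), with 5 AM means and the set of library numbers as a block of 3. The slope, the quadratic term, the departure from a line and the 4 steps were contrasts of these means, adjusted over all tested loci (Benjamini-Hochberg, 0.05). The SE was the log2 change divided by the square root of F. Slopes of the lines were compared in 1 fit with 6 sets. Printed CPM use library totals without TMM. Values within sets and principal components use log2 CPM with prior count 2. The scripts were tested on simulated data. Named were the 2 loci of lowest p per direction, with the same sign in 3 sets, for the slope, the departure from a line and the step with most loci. The grouping into sets was read from the library numbers. Members and lists were chosen with earlier results of these data known.

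Alternatives were DESeq2 1.42.0, limma 3.58.1, other scalings and filters, thinning, no block, and leaving out libraries, sets or groups.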

Additional observations from a re-analysis of the deposited data

How the results depend on the processing

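The slope count was 929 loci and between 625 and 1049 in the other settings, but 456 of the 899 loci that passed a stricter filter and 484 of 2208 in thinned counts, settings that test fewer loci. The other counts moved by over 1.5 times in some settings. With no replicate block, 25 quadratic terms, 16 departures and 13, 14, 0 and 6 loci at the 4 steps passed (801 slopes), and with DESeq2 34, 23 and 15, 12, 0 and 9. With limma voom the last 3 steps had 51, 3 and 36 loci. With no filter 77 departures and 6 and 36 loci at the last 2 steps passed among 21730 loci tested, and 2 slope differences between the lines among 23769. Among the 899 loci of the stricter filter 24 departures and 16 loci between AM2 and AM1, 0 between AM4 and AM3 and 8 between AM5 and AM4 passed. Among the 2208 loci of thinned counts 21 quadratic terms, 13 departures and 8, 2, 0 and 5 loci passed. Counts from such unlike numbers of loci tested are not shares and cannot be ranked against the main ones. In all 35 libraries with 6 sets 45 and 28 terms passed. Without numbers 1 to 6 there were 41 quadratic terms and 77, 0 and 9 loci at the last 3 steps. Without numbers 7 to 12 there were 0 and 16 at the middle steps. Without numbers 13 to 18 there were 19 quadratic terms, 13 departures, 2 loci between AM2 and AM1 and 0 between AM4 and AM3. Without NIL-MP3 numbers 1 to 6 there were 6 slope differences, and without 13 to 18 there was 1. The causes of these moves were not tested.

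Without any 1 library the ranges were 712 to 1019 slopes, 25 to 77 quadratic terms, 19 to 75 departures, 4 to 49, 0 to 79, 0 to 32 and 7 to 39 loci at the steps, 0 to 1 slope differences, and 42 to 86, 170 to 333, 117 to 254 and 58 to 106 loci for the breaks after AM1 to AM4. The filter was rerun for these tests, so the number of loci tested changed as well. The calls of the 4 loci named for slope held in each setting tried. Over all named loci 376 of 439 values held, 63 no longer passed and 0 reversed. The setting without AM3 (959 slopes) was chosen after seeing the data.

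Libraries of the same set deviated together only in part: 18 of 30 pairs had a correlation over 0.1 (0.0404 to 0.247), so the numbers do not pair the samples by that rule, although all 15 libraries correlated best with their own set. The replicate block stayed in the main test because the comparison was defined with it. Depth limits the single steps and the shape terms: a lost call there is no sign of an equal level or of a straight line.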
